A study of Mus musculus with 2 samples.

Results

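Cells with transcripts typical of the G2 phase or of mitosis were taken from single-cell RNA sequencing of mouse retinas at postnatal day 7. Their transcripts were compared between a control and a Mettl3-CKO library. A cell was a member when it had at least 1000 UMIs outside the mitochondrial genes and at least 1 UMI of at least 4 of 10 genes that peak late in the cell cycle: Top2a, Ccnb1, Cdk1, Ube2c, Birc5, Cenpf, Tpx2, Aurkb, Hmmr and Mki67. A UMI is a molecular barcode that stands for 1 captured transcript. The rule found 395 members, 152 of 3541 cells in Ctrl and 243 of 2789 cells in Mettl3-CKO that had at least 1000 UMIs. Members were thus selected on the measured UMIs of these genes, and nothing about the 10 rule genes is a result.

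The study deleted Mettl3, whose product methylates adenosines of mRNA to m6A (N6-methyladenosine), and used these libraries to compare the late retinas of control and mutant pups. Mettl3-CKO retinas came from Six3-Cre+ mice with both Mettl3 alleles floxed. Six3-Cre acts in retinal progenitor cells (RPCs), the study showed the loss of the protein in the central retina, and recombination elsewhere in the eye cup was not measured here. Ctrl retinas came from the same litter, and their alleles are not given in the sources used here. Each library pooled 2 retinas, digested with papain and captured with 10x Genomics 3′ chemistry, so each group held 1 library. Without replicates there was no test. The 95% intervals given throughout cover counting error within each library only, and every difference lies between these libraries and cannot be assigned to genotype, litter mates or capture.

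Late RPCs divide in the newborn mouse retina until they leave the cycle as rods, bipolar cells or Müller glia, the main late-born types. In G2 a cell with replicated DNA accumulates cyclin B and CDK1, and in mitosis kinesins, kinetochore proteins and condensins move the chromosomes before the anaphase-promoting complex destroys the cyclins. m6A sits mostly in long exons and near stop codons, and reader proteins that bind it are known to hasten the decay of many transcripts.

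The promoters of the rule genes are shown because these genes are known to be switched on together, by NF-Y at CCAAT boxes and by the MuvB complexes at the cell cycle homology region, TTTGAA or TTTAAA. The sequences are the 250 bases before the RefSeq start in build GRCm38.p6, 5′ to 3′ on the gene's strand, and capitals mark CCAAT and TTTGAA or TTTAAA on either strand (ATTGG and TTCAAA on the other). Top2a (chr11:99024190-99024439, minus strand), Cdk1 (chr10:69352913-69353162, minus strand), Ube2c (chr2:164769679-164769928, plus strand) and Mki67 (chr7:135716380-135716629, minus strand) hold both kinds, and Birc5 (chr11:117848987-117849236, plus strand) is shown as the rule gene without CCAAT.
Top2a: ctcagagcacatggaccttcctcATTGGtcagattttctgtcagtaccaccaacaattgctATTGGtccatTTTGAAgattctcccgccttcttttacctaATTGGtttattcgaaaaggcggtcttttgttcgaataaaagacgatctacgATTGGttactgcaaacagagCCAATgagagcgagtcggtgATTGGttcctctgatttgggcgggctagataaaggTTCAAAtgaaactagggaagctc
Cdk1: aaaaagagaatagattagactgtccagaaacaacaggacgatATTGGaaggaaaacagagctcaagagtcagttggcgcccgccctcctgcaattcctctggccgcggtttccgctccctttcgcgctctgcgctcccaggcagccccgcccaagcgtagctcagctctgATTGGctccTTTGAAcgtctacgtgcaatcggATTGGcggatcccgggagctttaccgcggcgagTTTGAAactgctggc
Ube2c: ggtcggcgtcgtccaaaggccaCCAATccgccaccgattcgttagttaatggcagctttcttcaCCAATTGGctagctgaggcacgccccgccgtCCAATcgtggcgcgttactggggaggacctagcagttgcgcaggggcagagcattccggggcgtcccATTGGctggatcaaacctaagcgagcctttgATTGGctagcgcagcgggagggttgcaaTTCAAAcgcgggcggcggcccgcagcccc
Mki67: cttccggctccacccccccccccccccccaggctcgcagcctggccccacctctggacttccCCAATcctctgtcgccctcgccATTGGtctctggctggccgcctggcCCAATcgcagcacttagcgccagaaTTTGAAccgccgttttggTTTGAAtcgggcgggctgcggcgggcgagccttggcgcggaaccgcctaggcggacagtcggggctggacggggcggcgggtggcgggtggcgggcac
Birc5: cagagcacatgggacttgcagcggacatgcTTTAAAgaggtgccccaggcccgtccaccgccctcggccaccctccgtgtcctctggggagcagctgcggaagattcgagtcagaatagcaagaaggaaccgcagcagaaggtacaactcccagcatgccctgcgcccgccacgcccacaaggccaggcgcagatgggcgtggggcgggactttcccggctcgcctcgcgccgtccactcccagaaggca

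The capitals are spread over each window rather than set at 1 distance. In Top2a, 6 CCAAT lie from 227 to 58 bases before the start, and TTTGAA lies at 179 and 23. In Cdk1, 3 CCAAT lie at 208, 80 and 48 bases, with TTTGAA at 71 and 15. In Mki67 the CCAAT at 188, 166 and 141 bases all lie upstream of the TTTGAA at 116 and 98.

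Over RefSeq windows of 300 bases, which run 50 bases past the start, 7 of the 8 rule genes with a window held CCAAT and all 8 held TTTGAA or TTTAAA. Tpx2 and Aurkb had no window in the table. Of all 32851 windows, 37.4% held CCAAT, 27.6% held TTTGAA or TTTAAA, and 10.7% held both kinds. The 5 lists of G2 and mitotic genes described below gave 69.9%, 62.7% and 49.4% over 83 windows of 75 matched genes among 86, against 58.1%, 22.6% and 19.4% over 31 windows of replication and S-phase genes. So CCAAT was frequent in both phases' genes, and TTTGAA or TTTAAA in those of G2 and mitosis. The motifs can overlap each other, and a match describes letters in a window, not a bound site.

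The share of members was 4.29% in Ctrl (3.65 to 5.01%) and 8.71% in Mettl3-CKO (7.69 to 9.82%), a ratio of 2.03 (1.67 to 2.47). By the number of rule genes detected, the Mettl3-CKO share was the higher from 1 to 10 genes. This includes cells outside the rule, as with 1 gene, at 9.12% of Ctrl and 15.4% of Mettl3-CKO cells. These are counts of the selecting genes themselves, so they add no support to the ratio. All 10 were detected in 50 Ctrl and 96 Mettl3-CKO cells, 1.41% and 3.44% of cells. Just inside the rule, with 4 genes, lay 21 and 27 cells, and just outside it, with 3 genes, lay 25 and 44 cells. Free RNA in droplets puts stray UMIs in other cells, so the rule was also applied to rods, which do not divide. Of cells with at least 6 rod markers, 6 of 1525 in Ctrl (0.393%) and 12 of 1076 in Mettl3-CKO (1.12%) met it, far below the shares of members. From these few cells the rod share was also higher in Mettl3-CKO, at a ratio of 2.83 (1.07 to 7.53), so it was not equal in both libraries. The share also depends on how deeply a cell was read, and the median was 4830 UMIs in Ctrl and 5667 in Mettl3-CKO cells. With every cell thinned to 2000 UMIs, which left out 448 and 204 shallower cells, the shares were 3.33% and 6.31%, a ratio of 1.89 (1.49 to 2.41).

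**Figure D1:**
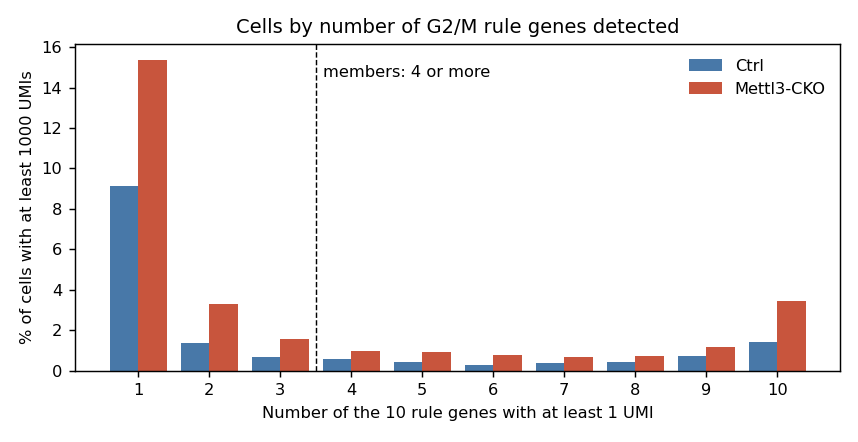
Percent of cells with at least 1000 UMIs (y axis) by the number of the 10 rule genes detected (x axis), in Ctrl (blue bars, 3541 cells) and Mettl3-CKO (red bars, 2789 cells). Cells with none are not drawn, the dashed line marks the rule, and at each number from 1 to 10 the Mettl3-CKO bar is the taller.

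The same shares were taken for neighbouring cells of the lineage. Cells with at least 4 of 10 S-phase genes that were no members made up 1.16% of Ctrl and 2.98% of Mettl3-CKO cells, a ratio of 2.57 (1.77 to 3.72). Cells with at least 5 of 10 Müller glia markers, neither member nor S phase, made up 10.9% and 10.6%, a ratio of 0.970 (0.841 to 1.12). The intervals of the member ratio and the S-phase ratio overlapped, so the excess was not particular to members. Those of the member ratio and the Müller ratio did not overlap. The Müller share rests on marker genes of which 2 of 7 tested were lower in Mettl3-CKO Müller-marker cells, with a median of -0.41. Among members, the S-phase genes themselves were common, with 4 or more of the 10 in 76 Ctrl (50%, 41.8 to 58.2%) and 134 Mettl3-CKO members (55.1%, 48.7 to 61.5%). These shares were taken without thinning, and no share in other cells is given beside them. They therefore cannot show whether the rule separated G2 and mitosis from S phase, and the phase of members is not settled here.

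Members were deeply read, with 1667605 UMIs over the Ctrl and 2741406 over the Mettl3-CKO members. The median member had 10365.5 UMIs and 3732 genes in Ctrl (lowest 1040, highest 88926 UMIs), and 10589 UMIs and 3848 genes in Mettl3-CKO (1003 to 77813). Mitochondrial UMIs were 3.74% and 3.16% of the median member. Depth therefore differed little between the members of both libraries, unlike the depth of all cells.

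The label of progenitors was checked against markers of RPCs, with each cell thinned to 4000 UMIs (125 Ctrl and 200 Mettl3-CKO members). Sox2 was detected in 76.0% of Ctrl and 72.5% of Mettl3-CKO members, against 4.22% and 5.78% of rod-marker cells. Hes1, a Notch effector that holds progenitors undifferentiated, was detected in 75.2% and 79.5%, against 4.32% and 3.98%. At least 5 UMIs of a panel of glial and progenitor genes were present in 93.6% and 94.0% of members, but no share in other cells is given for this panel. Müller-marker cells, the nearest type, had Sox2 in 76.2% and 74.5% and Hes1 in 79.3% and 82.3%, and Rax, another factor of RPCs, was in 86.4% and 88% of members and in 84.1% and 87.2% of rod-marker cells. So Sox2 and Hes1 set members apart from rods and not from Müller-marker cells, Rax set them apart from neither, and the label of progenitors rests on these markers together with the rule genes.

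Some members also carried markers of other cell types. At least 3 of 10 rod markers were detected in 27 Ctrl (17.8%) and 42 Mettl3-CKO members (17.3%), at least 3 cone markers in 1 and 7, vascular or pericyte markers in 8 and 6, microglia markers in 1 and 2, and astrocyte markers in 1 and 3. The Scrublet score, used to find droplets with a pair of cells, placed 11 and 23 members in its highest 6%. Some of these cells were so rich in 1 gene that they set that gene's level. The main results below are therefore also given after leaving out the cells with any of these marks, which left 117 Ctrl and 186 Mettl3-CKO members and is called the stripped set.

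The libraries also differed in Xist, the RNA of the inactive X chromosome, which had 0 UMIs in Ctrl members and 3325 UMIs in 134 of the 243 Mettl3-CKO members. The Ctrl library thus held few or no female cells, and the Mettl3-CKO library held cells with Xist and cells with Y-linked RNA and no Xist (67 members). Of the 134 members with Xist, 27 also had Y-linked UMIs, and 42 members had neither. The split by Xist therefore does not separate pups or sexes cleanly. Results are also given for the 109 Mettl3-CKO members without Xist, in which pup and sex cannot be told apart. Members were 9.60% (7.94 to 11.5%) of Mettl3-CKO cells without Xist and 8.11% (6.84 to 9.53%) of those with it, both above the Ctrl share of 4.29%.

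Across 6633 genes with at least 100 UMIs over both libraries, other than the rule genes and mitochondrial genes, the median log2 ratio of CPM in Mettl3-CKO over Ctrl was 0.055. CPM is the count of a gene divided by all UMIs of the members of its library and multiplied by 1000000. At least 1.5-fold higher in Mettl3-CKO were 513 genes, 7.73% of those tested, and at least 1.5-fold lower were 113, 1.7%. So 81.9% of these genes were higher, and 68.2% under median-of-ratios scaling, with 381 higher and 178 lower. In cells thinned to 2000 UMIs only 943 genes reached 100 UMIs, of which 29 were higher and 27 lower, or 51.8% of calls on the higher side. The stripped set gave 236 higher (4.70%) and 77 lower (1.53%) of 5022 genes, of which 160 and 33 were shared. Members without Xist gave 222 (4.59%) and 135 (2.79%) of 4832, with 145 and 58 shared. The counts of list genes below stand beside these shares of all genes in the same set.

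**Figure D2:**
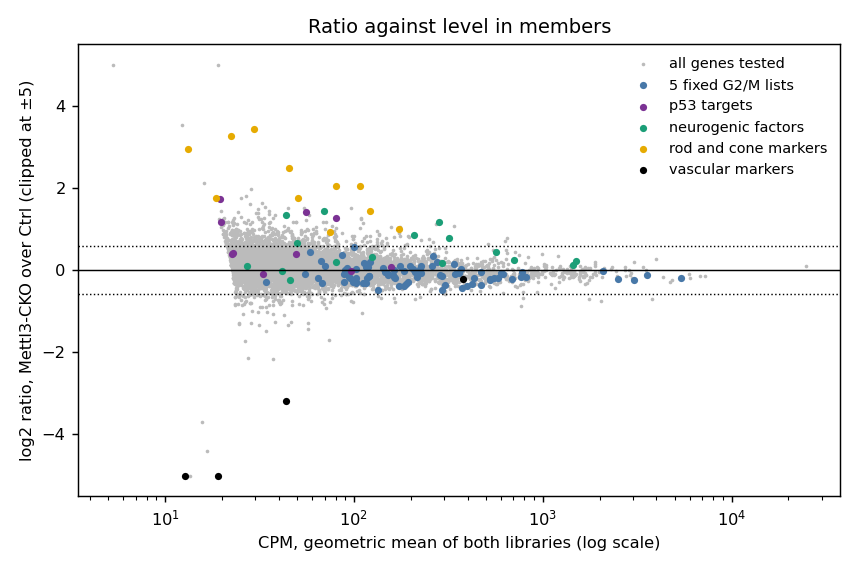
Log2 ratio of CPM in Mettl3-CKO over Ctrl members (y axis, clipped at 5 in either direction) against the level in CPM (x axis, log scale, geometric mean of both libraries with a low value set where a library had none). Grey points are all 6633 genes, dotted lines mark 1.5-fold, and coloured points show the G2/M genes near 0, rod and cone markers above and 3 vascular markers far below the rest.

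Genes of G2 and mitosis other than the 10 of the rule were at nearly equal levels. In 5 lists, cyclins and mitotic kinases, mitotic regulators, kinesins and spindle genes, kinetochore genes, and condensins with chromatin compaction genes, none of the 84 genes tested was 1.5-fold higher or lower, where the background was 7.73% and 1.7%. The medians of the log2 ratios were -0.15, -0.15, -0.098, -0.11 and -0.13. These genes are known to move with the rule genes, and both libraries were selected by the same rule, so near-equal levels are partly fixed by the choice of cells.

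Ccnb2 and Melk were the lowest of these lists, followed by genes that included Racgap1, Nusap1 and Ccna2. Ccnb2 was at 349 CPM in Ctrl (582 UMIs) and 248 CPM in Mettl3-CKO members (681 UMIs), a log2 ratio of -0.49 (-0.65 to -0.33). For Ccna2, Ctrl members had 894 UMIs (536 CPM) and Mettl3-CKO members 1138 UMIs (415 CPM), and the log2 ratio was -0.37 (-0.50 to -0.24). Cyclin A2 works with CDKs from S phase to early mitosis and cyclin B2 with CDK1 at the entry into mitosis. The level of Melk was 158 CPM in Ctrl members and 114 CPM in Mettl3-CKO members, from 264 and 312 UMIs, with a log2 ratio of -0.48 (-0.72 to -0.23), and this kinase is typical of dividing progenitors. Below 0 as well, with intervals that left it out, were Racgap1 at -0.43, a regulator of the cleavage furrow, Nusap1 at -0.40, a spindle protein, and Cdc20 at -0.34, the activator of the anaphase-promoting complex. In the stripped set these 6 genes were at -0.51, -0.22, -0.53, -0.42, -0.24 and -0.27.

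A few mitotic genes lay above 0. In Ctrl members Cdca5 had 138 UMIs, 82.8 CPM, and in Mettl3-CKO members 332 UMIs, 121 CPM, giving a log2 ratio of 0.55 (0.26 to 0.85). Cdca5 encodes sororin, which locks cohesin on sister chromatids, and in the stripped set its log2 ratio of 0.72 exceeded 1.5-fold. Haspin, the kinase that marks the centromere, was at 0.45 (0.067 to 0.83), Foxm1, a transcription factor for mitotic genes, at 0.38 (0.067 to 0.69), and Knl1, a scaffold of the kinetochore, at 0.34 (0.16 to 0.52). The kinases Plk1 and Aurka, which build the spindle poles, were at -0.10 (-0.33 to 0.13) and 0.20 (-0.053 to 0.47).

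Members were also described by their number of rule genes, which is the measure that selected them and moves with depth. The median member with 4 to 6 rule genes had 3376.5 UMIs in Ctrl and 6117 UMIs in Mettl3-CKO, so unlike cells meet in that bin, while with 7 to 9 the medians were 10562.5 and 10184 UMIs and with all 10 they were 13866.5 and 14325.5 UMIs. Summed over the cyclin and kinase list, the log2 ratio was -0.39 (-0.63 to -0.14) in members with 4 to 6 rule genes (46 Ctrl and 75 Mettl3-CKO cells), -0.42 (-0.53 to -0.31) with 7 to 9 (56 and 72 cells) and -0.13 (-0.20 to -0.061) with all 10 (50 and 96 cells). Replication and S-phase genes were at -0.50 (-0.61 to -0.40), -0.075 (-0.15 to -0.0042) and 0.28 (0.20 to 0.36). Pcna, the sliding clamp of DNA polymerase, was at -0.80 (-1.17 to -0.44) in the first bin and at 0.63 (0.24 to 1.03) in the last. DNA repair genes gave -0.25 (-0.51 to 0.020), 0.23 (0.063 to 0.40) and 0.66 (0.49 to 0.82). These are values of strata of the selecting genes, and no trend is drawn from them.

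Over all members, replication and S-phase genes were close to equal, with 1 of 28 tested at least 1.5-fold higher, none lower and a median of -0.045. That gene was Fen1, the nuclease that trims Okazaki fragments. Members had 198 UMIs of Fen1 in Ctrl (119 CPM) and 514 in Mettl3-CKO (187 CPM), and its log2 ratio was 0.66 (0.42 to 0.90). DNA repair genes had 5 of 14 tested higher, none lower and a median of 0.31, against 7.73% of all genes higher, and 4 of the list's 18 genes had too few UMIs or were not in the table. Brca2 was at 40.8 CPM in Ctrl (68 UMIs) and 79.5 CPM in Mettl3-CKO members (218 UMIs), a log2 ratio of 0.96 (0.56 to 1.38). Brca2 (GRCm38 chr5:150522630-150570329, plus strand) acts in homologous recombination at broken DNA. The others were the checkpoint kinase Chek1 at 0.69 (0.090 to 1.33), the mismatch repair gene Msh6 at 0.65 (0.069 to 1.27), the helicase Brip1 at 0.64 (0.16 to 1.13) and the exonuclease Exo1 at 0.61 (0.12 to 1.12). Brca1 was at 0.27 (-0.13 to 0.69). Within the stripped set 3 of 11 were higher with a median of 0.34, and in members without Xist 0 of 9 with a median of 0.11. Of all genes tested in these sets, 4.70% and 4.59% were higher. Under median-of-ratios scaling 2 of 14 were higher, with Msh6 at 0.58, Brip1 at 0.56 and Exo1 at 0.53, and by the mean of per-cell CPM 3 of 14.

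**Figure D3:**
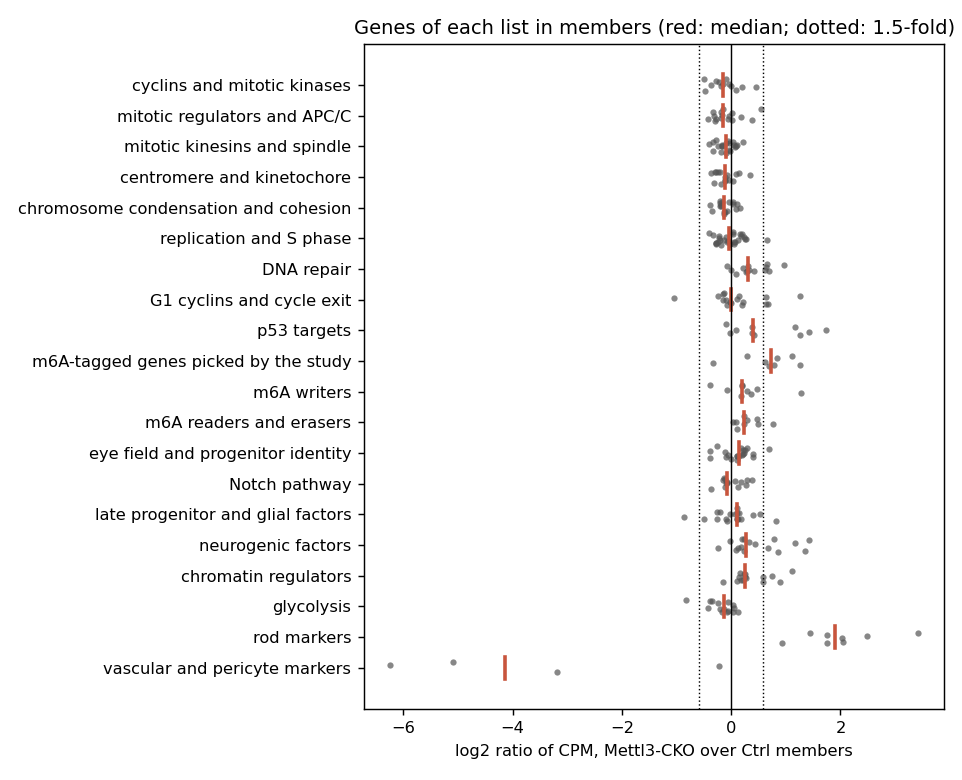
Log2 ratio of CPM in Mettl3-CKO over Ctrl members (x axis) for each tested gene (grey points) of 20 lists (y axis), with the median in red, 0 as a solid line and 1.5-fold as dotted lines. The top 5 lists, G2 and mitosis, stay within 1.5-fold, and DNA repair, p53 target, m6A-tagged and neurogenic genes reach past it on the right.

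Of 10 tested targets of p53, the factor that halts the cycle after DNA damage, 4 were higher and none lower, against 7.73% and 1.7% of all tested genes. Their median was 0.40, and the other 8 of the 18 listed had under 100 UMIs. For Cdkn1a, Ctrl members had 87 UMIs (52.2 CPM) and Mettl3-CKO members 342 UMIs (125 CPM), and the log2 ratio was 1.26 (0.91 to 1.61). Cdkn1a (GRCm38 chr17:29090976-29100727, plus strand) encodes the CDK inhibitor p21. The level of Aen was 34.2 CPM in Ctrl members and 91.2 CPM in Mettl3-CKO members, from 57 and 250 UMIs, with a log2 ratio of 1.42 (0.996 to 1.86). Aen (chr7:78895854-78911209, plus strand) encodes an apoptosis-enhancing nuclease. In Ctrl members Phlda3 had 18 UMIs, 10.8 CPM, and in Mettl3-CKO members 98 UMIs, 35.7 CPM, giving a log2 ratio of 1.73 (0.99 to 2.54), and Phlda3 encodes an inhibitor of AKT. Members had 22 UMIs of Ccng1 in Ctrl (13.2 CPM) and 81 in Mettl3-CKO (29.5 CPM), and its log2 ratio was 1.16 (0.47 to 1.91), and Ccng1 encodes cyclin G1. All 4 were thus higher in Mettl3-CKO with intervals above 0. Mdm2, which degrades p53, was at 0.38 (-0.033 to 0.80) and Bax, an effector of cell death, at 0.084 (-0.14 to 0.31).

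The higher level was uneven over cells. Of the Cdkn1a UMIs in Mettl3-CKO members, 40.6% lay in 5 cells, and in Ctrl 28.7%. In cells thinned to 4000 UMIs, Cdkn1a was detected in 20% of Ctrl (13.4 to 28.1%) and 24.5% of Mettl3-CKO members (18.7 to 31.1%), against 4.65% and 12.5% of rod-marker cells. Aen was detected in 12% (6.87 to 19.0%) and 28.5% (22.4 to 35.3%), against 11.4% and 14.1% of rod-marker cells. Rods may express both genes, and the Ctrl share of Aen lay at the share in rods, so it cannot be told from background. The intervals of the member shares did not overlap for Aen and did for Cdkn1a. Over stripped members, Aen was at 1.26, Phlda3 at 1.01, Ccng1 at 0.79 (-0.16 to 1.83) and Cdkn1a at 0.72, with Aen and Cdkn1a the 2 of 6 tested p53 targets that were higher, the others having under 100 UMIs or a ratio under 1.5-fold, and a median of 0.093. In Müller-marker cells Cdkn1a and Phlda3 had far larger log2 ratios, 4.49 and 3.13, and Aen a smaller one, 0.66. The S-phase cells did not follow for Cdkn1a, which was detected in 29.4% of 34 Ctrl and 15.2% of 79 Mettl3-CKO cells thinned to 4000 UMIs. Aen was detected in 26.5% and 32.9% of them, and the intervals overlapped for both genes. Of 3 p53 targets with enough UMIs in S-phase cells, 0 were higher.

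Genes of G1 and of the exit from the cycle had 4 of 17 tested higher and 1 lower, against 7.73% and 1.7% of all tested genes. Their median was 0.0028. Cdkn1c was at 159 CPM in Ctrl (265 UMIs) and 77.0 CPM in Mettl3-CKO members (211 UMIs), a log2 ratio of -1.05 (-1.31 to -0.78). Cdkn1c (chr7:143458339-143461050, minus strand) encodes p57, a CDK inhibitor that retinal progenitors use when they leave the cycle. For Cdkn2d, Ctrl members had 255 UMIs (153 CPM) and Mettl3-CKO members 652 UMIs (238 CPM), and the log2 ratio was 0.64 (0.43 to 0.85), and this gene encodes the CDK4 and CDK6 inhibitor p19INK4d. The level of Btg2 was 414 CPM in Ctrl members and 639.8 CPM in Mettl3-CKO members, from 690 and 1754 UMIs, with a log2 ratio of 0.63 (0.50 to 0.76), and Btg2 is an antiproliferative gene of the last progenitor divisions. So p57 was lower, while p21, p19INK4d and Btg2 were higher, but under median-of-ratios scaling Cdkn2d was at 0.56 and Btg2 at 0.55, under 1.5-fold, and 2 of 17 genes were higher. The fourth higher gene, Ccnd2, had over 90% of its UMIs in 5 cells of each library and its direction depended on the cells kept.

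Cdkn1c was detected in 46.4% of thinned Ctrl members (37.4 to 55.5%) and 20% of Mettl3-CKO members (14.7 to 26.2%), but in 27.2% and 30.0% of rod-marker cells. Rods may express it, so they give no measure of stray UMIs here. The share in Mettl3-CKO members, below that of rods, cannot be told from background. Btg2 was detected in 52.0% (42.9 to 61.0%) and 71.0% (64.2 to 77.2%), against 95.4% and 97.2% of rod-marker cells, and being below the share in rods these values give no comparison. In the stripped set Cdkn1c was at -1.28, Cdkn2d at 0.66 and Btg2 at 0.45, and in members without Xist at -1.42, 0.83 and 0.44. Ccnd1, the cyclin of dividing RPCs, had 4707 Ctrl and 8915 Mettl3-CKO UMIs and a log2 ratio of 0.20 (0.15 to 0.26).

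Transcripts of the m6A pathway were examined next. In Ctrl members Mettl3 had 46 UMIs, 27.6 CPM, and in Mettl3-CKO members 58 UMIs, 21.2 CPM, giving a log2 ratio of -0.38 (-0.97 to 0.21). The 3′ counts do not show the deleted part of the gene, so they check neither the label nor the deletion, and Mettl3 overlaps Tox4 on the other strand. Of 9 tested writer genes 1 was higher, the adaptor Rbm15 (chr3:107325421-107333673, minus strand). With 7.73% of all tested genes higher, 1 of 9 is near the background, here and for the readers and erasers below. Members had 117 UMIs of Rbm15 in Ctrl (70.2 CPM) and 465 in Mettl3-CKO (169.6 CPM), and its log2 ratio was 1.27 (0.98 to 1.58). Its log2 ratio was 1.21 in the stripped set, 1.48 in members without Xist and 1.11 in Müller-marker cells. Mettl14, the partner of METTL3, was at -0.076 (-0.61 to 0.47) and Wtap, which anchors both, at 0.47 (0.19 to 0.76). Of 9 readers and erasers 1 was higher, the decay reader Ythdf2, at 103 CPM in Ctrl and 173 CPM in Mettl3-CKO and a log2 ratio of 0.76 (0.50 to 1.02).

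Of 8 m6A-tagged genes that the study had picked among those higher in its mutant, 6 were higher in members and none lower, with a median of 0.74. The study chose that list on these libraries, so the count is no independent evidence. Zfp292 was at 184 CPM in Ctrl (307 UMIs) and 398 CPM in Mettl3-CKO members (1091 UMIs), a log2 ratio of 1.11 (0.93 to 1.30). Zfp292 (chr4:34803113-34882960, minus strand) encodes a large zinc finger protein. For Traf4, Ctrl members had 36 UMIs (21.6 CPM) and Mettl3-CKO members 142 UMIs (51.8 CPM), and the log2 ratio was 1.26 (0.73 to 1.83), and Traf4 encodes a signalling adaptor. Nxt1, a cofactor of mRNA export, was at 0.84 (0.62 to 1.05), Apex1, an endonuclease of base excision repair, at 0.79 (0.55 to 1.04), Ckap4 at 0.69 (0.50 to 0.87) and Bcl7a, a SWI/SNF subunit, at 0.61 (0.38 to 0.86). Rap2b was at 0.29 (-0.13 to 0.73) and Sulf2, a heparan sulphatase, at -0.33 (-0.74 to 0.092). Within the stripped set 4 of 7 were higher and Sulf2, at -0.75, was lower by more than 1.5-fold.

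In cells thinned to 4000 UMIs Zfp292 was detected in 47.2% of Ctrl (38.2 to 56.3%) and 62.0% of Mettl3-CKO members (54.9 to 68.8%), but also in 54.6% and 58.0% of rod-marker cells. The shares of cells with a UMI are therefore no comparison for Zfp292, and the ratios rest on the level.

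**Figure D4:**
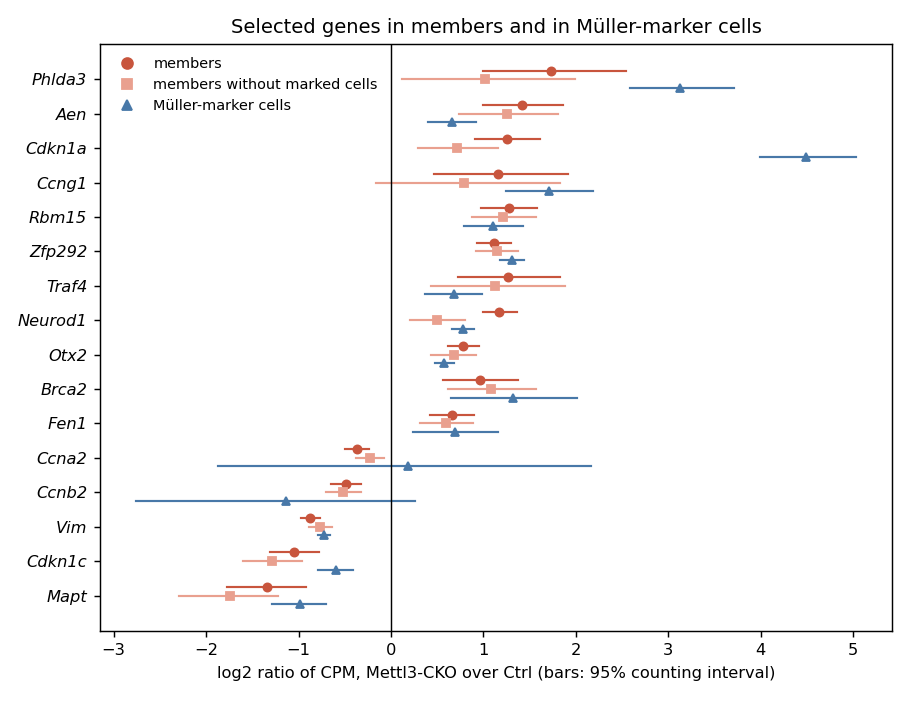
Log2 ratio of CPM in Mettl3-CKO over Ctrl (x axis) with its 95% counting interval for 16 genes (y axis) in members (red circles), in the stripped set (pale squares) and in Müller-marker cells (blue triangles). Cdkn1a and Phlda3 lie farther right in Müller-marker cells than in members, Zfp292 and Rbm15 lie close in all sets, and Vim, Cdkn1c and Mapt lie left of 0 in all.

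A feature that the rule did not use set the higher genes apart. Their longest coding exon had a median of 558 bases, against 249 bases over all tested genes and 246 bases over the lower genes, in the transcript with the longest coding sequence. It reached 1000 bases in 30.7% of the higher genes and 11.4% of all. The share of genes at least 1.5-fold higher was 2.88% where that exon was under 200 bases (2152 genes), 6.15% from 200 to under 500 (2732), 12.6% from 500 to under 1000 (922), 18.9% from 1000 to under 2000 (535) and 24.3% from 2000 bases on (214). The share of lower genes was 1.81%, 1.83%, 1.52%, 0.561% and 2.34%. So in all members the higher genes became more frequent with the length of that exon and the lower genes did not. The higher genes also had fewer exons, a median of 6 against 9 over all tested genes, and longer transcripts, 3420 against 2821 bases.

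The pattern was also present among genes with at least 300 UMIs, where the shares of higher genes were 0.947%, 2.61%, 8.56%, 13.7% and 16.9%. Over stripped members, with at least 100 UMIs, they were 1.75%, 3.70%, 8.42%, 12.2% and 15.2%. The shares of lower genes in that set were 1.46%, 1.35%, 1.38%, 1.35% and 3.64%, so the longest class was the highest there too. The same order of the higher shares was found in Müller-marker cells, at 1.87%, 4.49%, 9.44%, 12.1% and 21.2%, so it was not particular to members. The median gene had 332.5 UMIs in the shortest and 249.5 UMIs in the longest class. Genes are not replicates, and the cause of the pattern was not tested.

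**Figure D5:**
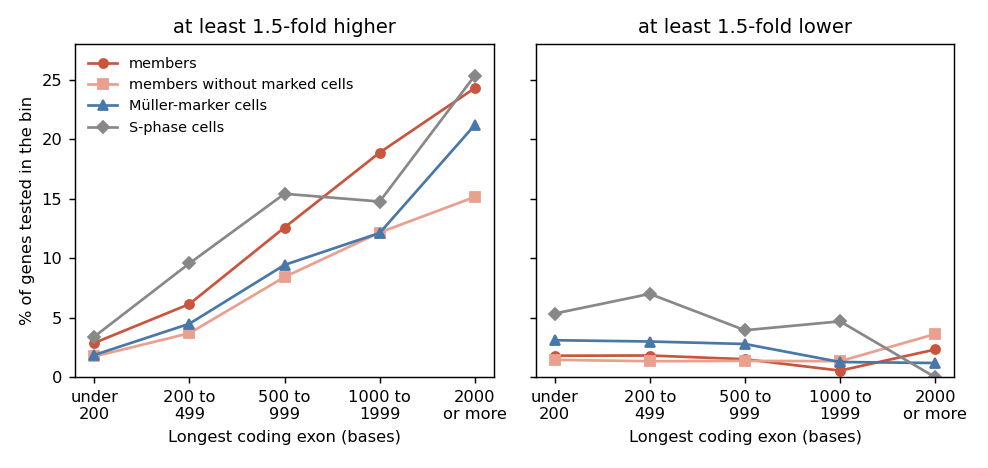
Percent of the tested genes (y axis) that were at least 1.5-fold higher (left panel) or lower (right panel) in Mettl3-CKO, by the length of their longest coding exon in bases (x axis). In members (red circles) the higher share runs from 2.88% to 24.3%, the stripped set, Müller-marker and S-phase cells also end far above where they start, and the lower share in members stays under 2.5%.

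Named genes show both sides of that pattern. Zfp292 has a coding exon of 7080 bases, Brca2 of 4809, Rbm15 of 2866, Msh6 of 2536 and Ythdf2 of 1584. The histone methyltransferase gene Ash1l, from the list of chromatin regulators, has 1 of 4558. Among the genes with the top ratios, Rp1 has 1 of 5489, Mn1 of 3718 and Zbtb1 of 2139. Others of that ranking have shorter ones, with 639 bases in Cacna1i, 375 in Phlda3, 270 in Ier3 and 238 in Osbpl8. Cplx3 has 222, Sag 194, Pde6g 146 and Snap25 145 bases, so a high ratio was also found with short exons. In contrast, Knl1, with 4497 bases, Brca1, with 3315, Haspin, with 2262, and Foxm1, with 1187, were below 1.5-fold, at 0.34, 0.27, 0.45 and 0.38. The genes named here are examples, and of all tested genes with an exon of 2000 bases or more 24.3% were higher.

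Where 7.73% of all tested genes were higher, chromatin regulators had 3 of 15 tested higher, none lower and a median of 0.24. Beside Zfp292 these were Ash1l, at 128 CPM in Ctrl and 237 CPM in Mettl3-CKO with a log2 ratio of 0.89 (0.67 to 1.12), and Setd1b, at 52.8 CPM in Ctrl and 88.6 CPM in Mettl3-CKO with a log2 ratio of 0.75 (0.39 to 1.12), both of which encode histone methyltransferases. The 3 genes kept log2 ratios of 0.94, 0.70 and 0.76 in members without Xist. After stripping, 2 of 15 were higher, and Setd1b was at 0.51, under 1.5-fold.

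Of 21 tested genes of the eye field and of RPCs 1 was higher and none lower, with a median of 0.15. These counts are near the 7.73% and 1.7% of all tested genes, so they do not set the list apart. Pax6, Rax, Lhx2 and Sox2, core factors of retinal progenitors, lay between 0.11 and 0.22. Six3, which overlaps the antisense gene Six3os1, was at 0.40 (0.31 to 0.49). The higher gene was Fgf15, a growth factor of dividing RPCs. The level of Fgf15 was 95.3 CPM in Ctrl members and 155 CPM in Mettl3-CKO members, from 159 and 424 UMIs, with a log2 ratio of 0.70 (0.43 to 0.97). In the stripped set it was at 0.44, under 1.5-fold. In S-phase cells the list had 1 of 19 genes higher and 5 lower. Their median was -0.24 there, against 0.18 for the same genes in members. None of 14 tested Notch genes was higher or lower, with Notch1 at -0.079 (-0.22 to 0.061), Hes1 at 0.18 (0.079 to 0.28) and Hes5 at -0.11 (-0.18 to -0.039). In members without Xist, however, Hes5 was at -0.62.

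Of 19 tested late progenitor and glial genes 1 was higher, 1 lower and the median was 0.10. The lower gene was Vim (chr2:13573927-13582826, plus strand), an intermediate filament of RPCs and Müller glia. In Ctrl members Vim had 1723 UMIs, 1033 CPM, and in Mettl3-CKO members 1548 UMIs, 565 CPM, giving a log2 ratio of -0.87 (-0.97 to -0.77). Thinned to 4000 UMIs, 93.6% of Ctrl members (87.8 to 97.2%) and 80.5% of Mettl3-CKO members (74.3 to 85.8%) had a UMI of it, against 8.11% and 7.45% of rod-marker cells. Its log2 ratio was -0.77 in the stripped set, -0.61 in members without Xist, -1.07 in those with it and -0.73 in Müller-marker cells. Vim was thus lower in each of these sets. Rlbp1, which binds retinaldehyde in Müller glia, was at 299 CPM in Ctrl and 212 CPM in Mettl3-CKO and -0.50 (-0.67 to -0.32). The higher gene was Nfic, a nuclear factor of late RPCs, at 0.82 (0.54 to 1.10), while its relatives Nfia, Nfib and Nfix lay between -0.015 and 0.15.

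Neurogenic factors had 6 of 16 tested genes higher, none lower and a median of 0.28, against 7.73% of all tested genes higher. Members had 313 UMIs of Neurod1 in Ctrl (188 CPM) and 1161 in Mettl3-CKO (424 CPM), and its log2 ratio was 1.17 (0.99 to 1.36). Neurod4 was at 42.6 CPM in Ctrl (71 UMIs) and 115 CPM in Mettl3-CKO members (314 UMIs), a log2 ratio of 1.43 (1.05 to 1.82). Both are bHLH factors of photoreceptor and bipolar precursors. For Otx2, Ctrl members had 405 UMIs (243 CPM) and Mettl3-CKO members 1145 UMIs (418 CPM), and the log2 ratio was 0.78 (0.62 to 0.95), and Otx2 commits cells to the photoreceptor and bipolar lineages. The level of Crx was 27.6 CPM in Ctrl members and 70.0 CPM in Mettl3-CKO members, from 46 and 192 UMIs, with a log2 ratio of 1.34 (0.87 to 1.84), and Crx is the photoreceptor factor downstream of it. Insm1, a zinc finger factor of newborn neurons, was at 0.86 (0.66 to 1.07) and Prdm1, which favours photoreceptor over bipolar fate, at 0.66 (0.25 to 1.10). The proneural gene Neurog2 was at 0.21 (-0.11 to 0.53). So the 6 higher genes were mostly factors of committed precursors.

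These ratios rested on part of the members. Of the Neurod1 UMIs, 57.5% in Ctrl and 44.7% in Mettl3-CKO lay in 5 cells, and the mean of per-cell CPM gave 1 of 16 genes higher. Within the stripped set 2 of 13 were higher, with Neurod1 at 0.50, Otx2 at 0.68, Insm1 at 0.78, and those below 100 UMIs were Crx at 0.55 (-0.53 to 1.72) and Neurod4 at 3.01 (1.82 to 4.497). In Mettl3-CKO members without Xist 1 of 13 was higher and 1 lower, with Neurod1 at 0.24, Otx2 at 0.023, Insm1 at 0.29 and Crx at 0.21, against 1.55, 1.11, 1.13 and 1.77 in those with Xist. The excess was therefore not present to the same size in the 2 sets of Mettl3-CKO cells. These sets are not clean pups or sexes, and the cause of the difference was not tested.

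In cells thinned to 4000 UMIs, at least 5 UMIs of a panel of neuronal precursor genes were present in 15 of 125 Ctrl members (12%, 6.87 to 19.0%) and 41 of 200 Mettl3-CKO members (20.5%, 15.1 to 26.8%). The intervals of these shares overlapped, and no share in rod-marker cells is given for this panel. Most of the cells with the neuronal precursor panel, 13 and 31, also had at least 5 UMIs of the glial and progenitor panel.

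Markers of mature photoreceptors moved with these genes. Rod markers had 8 of 8 tested genes higher with a median of 1.89, and their summed level was 294 CPM in Ctrl and 1041 CPM in Mettl3-CKO members. Cone markers had 3 of 3 higher, summed to 134 and 372 CPM, and of the 8 cone markers 4 had 0 UMIs in Ctrl members and 1 in Mettl3-CKO members. After stripping, Sag was at 0.28 (-0.56 to 1.17) and Rp1 at 0.95 (-1.54 to 4.29), the latter from 2 Ctrl and 6 Mettl3-CKO UMIs. Both are among the rod markers by which cells were stripped, so these smaller ratios are partly fixed by that choice. In Ctrl members Rp1 had 15 UMIs, 8.99 CPM, and in Mettl3-CKO members 264 UMIs, 96.3 CPM, giving a log2 ratio of 3.42 (2.67 to 4.28), with 75.0% of the Mettl3-CKO UMIs in 5 cells. Members had 66 UMIs of Sag in Ctrl (39.6 CPM) and 447 in Mettl3-CKO (163 CPM), and its log2 ratio was 2.04 (1.67 to 2.44), with 77.4% in 5 cells. With each member weighted equally the median of the rod markers was -0.027, with 1 of 8 higher and 2 lower, so a few photoreceptor-rich cells held the excess. Their part in the neurogenic ratios was not tested beyond the values without them.

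Vascular genes lay at the other end and were also held by few cells. The 8 vascular and pericyte markers summed to 846 CPM in Ctrl and 384 CPM in Mettl3-CKO members, while microglia markers summed to 11.99 and 99.2 CPM and astrocyte markers to 68.4 and 70.4 CPM. Cldn5, the claudin of endothelial cells, had 124 UMIs in Ctrl members, all in 1 cell, and 6 UMIs in Mettl3-CKO members. Col4a1, a collagen of basement membranes, had 221 Ctrl and 40 Mettl3-CKO UMIs, of which 91.0% of those in Ctrl lay in 5 cells. Its log2 ratio of -3.18 became 0.14 in the stripped set. Col4a1 is itself among the vascular markers that leave cells out of that set, so the change is partly fixed by the choice of cells. Gng11, another gene of these cells, went from -2.17 to 0.0057 and Slc7a5, an amino acid transporter, from -1.72 to -0.21.

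Other lists gave few differences. Glycolysis had 0 of 15 tested genes higher and 1 lower with a median of -0.14, and the lower gene was the phosphofructokinase Pfkp at -0.82 (-1.16 to -0.49). After stripping, Pfkp was at -0.54 and none of 13 tested genes was lower. Eno1 and Pgk1 were at -0.35 (-0.42 to -0.28) and -0.42 (-0.52 to -0.31). Genes of MYC, translation and ribosome making had 0 of 12 higher or lower with a median of 0.081. Apoptosis genes had 0 of 7 with a median of -0.067. Immediate early and heat shock genes, which respond to dissociation, had 1 of 13 higher with a median of 0.15, with Fosb at 0.48 (0.35 to 0.60) and Junb at 0.53 (0.31 to 0.75). The 1 higher gene was Ier3, with 73.2% of its Mettl3-CKO UMIs in 5 cells and a log2 ratio that went from 1.71 to -1.001 in the stripped set.

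Beyond the lists, the 12 top and 12 bottom genes by ratio were taken, among genes seen in at least 10% of the members of 1 library and with the same direction under the other scalings. Mn1 was at 13.8 CPM in Ctrl (23 UMIs) and 46.7 CPM in Mettl3-CKO members (128 UMIs), a log2 ratio of 1.76 (1.11 to 2.47), and Mn1 encodes a transcriptional coactivator. For Zbtb1, Ctrl members had 33 UMIs (19.8 CPM) and Mettl3-CKO members 158 UMIs (57.6 CPM), and the log2 ratio was 1.54 (0.99 to 2.13), and Zbtb1 encodes a zinc finger repressor. Mn1 and Zbtb1 were detected in 13.2% and 15.8% of Ctrl members and in 26.7% and 37.4% of Mettl3-CKO members. Also among the top genes were Osbpl8, a lipid transfer protein, at 1.44 (0.72 to 2.22), Cacna1i, a T-type calcium channel, at 1.43 (0.91 to 1.999), the synaptic genes Snap25 at 1.52 (1.04 to 2.02) and Cplx3 at 1.49 (0.92 to 2.10), and Rp1, Sag, Pde6g, Phlda3 and Ier3. Over stripped members, Mn1, Zbtb1, Osbpl8 and Cacna1i were at 1.63, 1.78, 1.41 and 1.61, and Cplx3 and Pde6g at 0.36 and -0.26. Pde6g is a rod marker by which cells were stripped.

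At the low end stood Mapt (chr11:104231390-104332090, plus strand), which encodes the microtubule protein tau. The level of Mapt was 71.4 CPM in Ctrl members and 28.1 CPM in Mettl3-CKO members, from 119 and 77 UMIs, with a log2 ratio of -1.35 (-1.78 to -0.92). Its ratio was -1.75 in the stripped set, -1.39 without Xist and -0.99 in Müller-marker cells, so it was lower in each. In Ctrl members Mcam had 157 UMIs, 94.1 CPM, and in Mettl3-CKO members 95 UMIs, 34.7 CPM, giving a log2 ratio of -1.44 (-1.83 to -1.07), and Mcam encodes a cell adhesion molecule. Members had 83 UMIs of Rgcc in Ctrl (49.8 CPM) and 54 in Mettl3-CKO (19.7 CPM), and its log2 ratio was -1.34 (-1.86 to -0.83), and Rgcc encodes a regulator of the cell cycle. Ppic, a cyclophilin, was at -1.70 (-2.05 to -1.37), the annexin Anxa2 at -2.15 (-2.74 to -1.58), Pdlim5, a scaffold of the actin skeleton, at -1.28 (-1.83 to -0.75) and the GTPase gene Ralb at -1.29 (-1.88 to -0.71). In the stripped set Mcam, Rgcc, Ppic, Anxa2, Pdlim5 and Ralb were at -1.01, -1.12, -1.19, -1.87, -1.02 and -1.11. Ifitm2, at -1.48 (-1.98 to -0.99), and Phlda1, at -1.31 (-1.90 to -0.74), complete the low genes with Col4a1, Gng11 and Slc7a5.

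The neurite list had 2 of 10 genes higher, 1 lower and a median of 0.16, against 7.73% higher and 1.7% lower of all tested genes. Mapt was the lower gene, and Tubb3, a tubulin of young neurons, and Stmn3 were the higher ones. Tubb3 was at 36.6 CPM in Ctrl (61 UMIs) and 91.9 CPM in Mettl3-CKO members (252 UMIs), a log2 ratio of 1.33 (0.92 to 1.76). Within the stripped set Tubb3 was at 0.22 and in members without Xist at 0.21.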

How the data were processed

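The deposited files held raw UMI counts per gene and cell that the authors made with fastp and Cell Ranger 3.1.0 against GRCm38. The matrices as used here held complete counts for 3994 of 5995 Ctrl and 3109 of 6992 Mettl3-CKO barcodes, the others were not analysed here, and 5 barcodes were shared by both libraries. Whether counting used strand is not given in the sources used here, and 43 of 132 genes examined overlap a gene on the other strand, such as Mettl3, Otx2, Fen1, Msh6 and Ash1l, so reads of these pairs cannot be told apart.

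The 10 rule genes, the lists and the comparisons were chosen with earlier results of these data known. UMIs of all members were summed per library and divided by the total and multiplied by 1000000 to give CPM. Ratios have exact conditional binomial intervals, shares Clopper-Pearson intervals and share ratios Katz intervals, all at 95%. A gene was tested with at least 100 UMIs over both libraries and called at a ratio of at least 1.5-fold. A library with 0 UMIs of a gene was given 3. Genes were named as list members or as the 12 highest and 12 lowest called genes seen in at least 10% of the members of 1 library and with 1 direction under the other scalings, and a few genes that this rule or the lists name are not reported here. Cells were thinned to 2000 or 4000 UMIs without replacement. Because the automatic Scrublet threshold marked 0.0501% and 0.225% of cells, the highest 6% of scores were used instead. Exons were taken from GENCODE vM21 and promoters from RefSeq. Alternatives changed the rule, depth, cells, scaling and count minimum. Leaving out cells with photoreceptor markers, leaving out all marked cells, keeping only Mettl3-CKO cells with Y-linked UMIs and no Xist, and splitting cells of at least 4000 UMIs by Xist were chosen after seeing the data. Python 3.11.15, numpy 2.4.6, scipy 1.17.1, pandas 2.3.3 and scanpy 1.11.5 were used, and the calculations were tested on simulated counts.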

Additional observations from a re-analysis of the deposited data

Results flagged for a closer look

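Xist, which served in the report to split the Mettl3-CKO cells and whose level was not compared as a result, had 3325 UMIs in Mettl3-CKO members and 0 in Ctrl members. A few genes lay at least 1.5-fold to one side in members and to the other in Müller-marker cells, with 1 library per group, so the differences were not tested. The log2 ratio in members and in Müller-marker cells was 0.68 and -1.34 for Ccnd2, 0.89 and -0.63 for Ccser2, 1.28 and -2.17 for H19, 1.71 and -0.69 for Ier3, 2.94 and -0.80 for Opn1sw and 1.44 and -0.64 for Osbpl8. For Lgals1 it was -0.66 and 1.58.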

How the results depend on the processing

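No paired analysis was possible because each group held 1 library. The share of members kept its ratio within its interval under each alternative run on it. The 513 higher and 113 lower genes became 222 higher in members without Xist, 226 with Y-linked UMIs and no Xist, 278 without photoreceptor-marked cells and 236 in the stripped set, 29 and 27 of 943 in cells thinned to 2000 UMIs, 981 and 256 with a minimum of 50 UMIs, 109 and 23 with 300, and 102 and 26 at 2-fold. Lower genes were 178 under median-of-ratios scaling and 202 by the mean of per-cell CPM, which placed 68.2% and 73.1% of calls on the higher side. The sign changes given next are of genes and list medians that were past 1.5-fold in all members, and the cause was not tested. Values nearer 0 crossed it in other genes too, such as Neurog2, Wtap, Cdc20 and Plk1. Ccnd2 went to -0.34 when thinned, -1.96 without microglia-, vascular- or astrocyte-marked cells, -4.05 with Xist, -0.61 without photoreceptor-marked cells, -2.22 in the stripped set and -0.66 per cell. Rgs5 went to 0.35 with at least 6 rule genes, 0.34 when thinned, 0.73 without microglia-, vascular- or astrocyte-marked cells, 0.62 without photoreceptor-marked cells and 0.95 in the stripped set. Without photoreceptor-marked cells Col4a1 went to 0.018, Gng11 to 0.30, Opn1sw to -0.024 and Pde6g to -0.22. In the stripped set Col4a1 went to 0.14, Gng11 to 0.0057, Pde6g to -0.26 and Ier3 to -1.001. Where cells were left out by a list that holds the gene itself, as for Rgs5, Col4a1, Opn1sw and Pde6g, the change is partly fixed by that choice. Thinned, Ifitm2 went to 0.016 and Phlda1 to 0.66. Without Xist, Prdm1 went to -0.036. The median of rod markers was -0.027 per cell, and that of sex-linked genes -0.37 without Xist, -0.091 with Y-linked UMIs and no Xist and -1.18 with a minimum of 50 UMIs. Of the values of named genes under alternatives, 1635 moved by less than their interval, 290 moved further, and 22 changed sign from a value past 1.5-fold. Depth limits genes with few UMIs, whose intervals are wide, and cells with few UMIs, in which a rule gene can be missed.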
